A study of Mus musculus with 2 samples.

Results

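The Ccr2-positive C1q macrophages described here are 246 cells out of 12951 that passed filters, in single-cell RNA sequencing of non-cardiomyocytes from the ventricles of adult mouse hearts. Both animals were wild type, of strain C57BL/6 and aged 10 to 12 weeks, and each of the 2 gave 1 library by the 10x Chromium 3′ v2 method, in which each captured molecule is counted once through a unique molecular identifier (UMI). Hearts were perfused on a Langendorff apparatus, atria were removed, cardiomyocytes were spun out at low speed and live cells were sorted, so cell shares reflect what survived that isolation. Mouse 1 gave 133 of these cells and mouse 2 gave 113.

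The cells were chosen by thresholds on their own UMI counts alone. A barcode needed at least 500 UMIs with at most 10% mitochondrial UMIs, at least 15 UMIs summed over C1qa, C1qb and C1qc, at most 3 of Dcn, at most 1 of Pecam1 plus Cdh5, at most 1 of Timd4 plus Lyve1, and at least 2 of Ccr2. Of the 14099 barcodes deposited, 5542 were C1q cells by this gate with any Timd4, Lyve1 and Ccr2 count, and 2620 of those had at most 1 UMI of Timd4 plus Lyve1. The Ccr2-positive C1q cells were set against 3 other cell sets from the same mice. The nearest, called Ccr2 0 C1q cells below, met every other criterion with no Ccr2 UMI (974 cells in mouse 1 and 1246 in mouse 2). Timd4/Lyve1 C1q cells had at least 2 UMIs of Timd4 plus Lyve1 and no Ccr2 UMI (1848 and 975 cells). C1q-low Ccr2-positive cells had at most 4 C1q UMIs, at least 2 Ccr2 UMIs and at least 3 Lyz2 UMIs (59 and 30 cells). They also had at most 1 UMI of Timd4 plus Lyve1 and no UMI of Cd3d, Cd3e, Cd3g or Nkg7, a filter the other sets did not have.

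CCR2 is the receptor for the chemokines CCL2, CCL7 and CCL12, and it brings monocytes out of the bone marrow and into tissues. C1q, made by macrophages, is the recognition subunit of the classical complement pathway, and the genes for its A, B and C chains sit together on chromosome 4. In the adult mouse heart, macrophages bearing TIMD4, LYVE1 and FOLR2 are long-lived and renew themselves within the tissue, whereas CCR2-bearing macrophages are replenished from blood monocytes and some carry the integrin CD11c, encoded by Itgax. Ccr2 lies on the plus strand of chr9:124101950-124113557 and Itgax on the plus strand of chr7:128129547-128150657 in the mm10 build.

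Ccr2 had a median of 3 UMIs per Ccr2-positive C1q cell in each mouse, with maxima of 12 and 11. The threshold was met exactly, with 2 UMIs, by 39 cells of mouse 1 and 41 of mouse 2, while 84 and 70 C1q cells fell just outside it with 1. Summed C1q was 61 UMIs per cell at the median in mouse 1 and 51 in mouse 2, against 51 and 44 in Ccr2 0 C1q cells. These counts chose the cells and are a description only. Ccr2 UMIs were rare where the gene should not be expressed. Among fibroblast-type cells with at least 10 Dcn UMIs, 6 of 1867 in mouse 1 (0.321%) and 10 of 1355 in mouse 2 (0.738%) held any, at median depths of 2797 and 2515 UMIs, and 2 and 0 cells reached 2.

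Ccr2-positive C1q cells were deeper than their comparison cells, with median totals of 3710 and 3381 UMIs against 2381.5 and 2364 in Ccr2 0 C1q cells, and a cell with more UMIs passes a Ccr2 threshold more easily. They made up 4.28% of C1q cells in mouse 1 (exact 95% interval 3.60 to 5.05) and 4.64% in mouse 2 (3.84 to 5.55). Among C1q cells with at most 1 Timd4 plus Lyve1 UMI the shares were 11.2% (9.43 to 13.1) and 7.91% (6.56 to 9.43). With every cell first thinned to 1500 UMIs, the shares of C1q cells were 1.51% and 2.41%, so the share changed with the depth. These intervals cover counting error only.

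The label was checked against defining markers. Leaving out C1qa, which the rule used, the 8 other macrophage markers listed included Csf1r, Adgre1, Mertk, Fcgr1 and Cd68. Their summed levels in Ccr2-positive C1q cells were 3004 and 2611 UMIs per 1000000 UMIs of the summed cells (CPM). They were 4523 and 4003 CPM in Ccr2 0 C1q cells and 1408 and 947 CPM in C1q-low Ccr2-positive cells. All 8 had a UMI in every set of both mice, so detection alone does not separate the sets. Csf1r, the receptor that macrophages need for survival, was at 483 and 561 CPM. Markers of dendritic cells summed to 11.1 and 26.6 CPM, against 10.5 and 17.3 CPM in Ccr2 0 C1q cells. Of that list, Cd209a was higher in both mice, at 5.56 and 14.5 against 1.21 and 2.61 CPM. Fscn1 was lower in both, with 0 against 8.14 CPM in mouse 2. Xcr1 and Clec9a had 0 UMIs in Ccr2-positive C1q cells. The larger Ccr2 0 set held only 1 and 1 UMIs of Xcr1 and 0 and 1 of Clec9a, so these counts do not separate the 2 sets. The third marker in the label, Itgax, was scarce. It had a UMI in 13 of 133 Ccr2-positive C1q cells of mouse 1 (9.77%, exact 95% interval 5.31 to 16.1) and in 4 of 113 of mouse 2 (3.54%, 0.973 to 8.82), against 14 of 974 (1.44%) and 11 of 1246 (0.883%) Ccr2 0 C1q cells. Thinned to 1500 UMIs, the shares were 6.06% and 0.917% against 0.933% and 0.755%, so in mouse 2 the thinned shares lay close together. Fibroblast-type cells had an Itgax UMI in 0 of 1867 and 1 of 1355. Most Ccr2-positive C1q cells therefore held no Itgax UMI at this depth, and the cells are described by their rule and not as CD11c-bearing.

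Markers of some other cell types moved with the set. The 8 monocyte markers summed to 798 and 157 CPM in Ccr2-positive C1q cells, against 103 and 63.5 CPM in Ccr2 0 C1q cells. Endothelial markers were lower, at 217 and 346 against 602 and 697 CPM, and fibroblast markers stood at 380 and 327 against 390 and 395 CPM. Natural killer cell markers summed to 75.9 and 9.68 against 12.9 and 13.7 CPM, higher in mouse 1 only. Transcripts of cardiomyocytes, the cells removed by low-speed spins, summed to 809 and 370 against 1006 and 383 CPM. At least 3 UMIs of them occurred in 37 (27.8%) and 21 (18.6%) Ccr2-positive C1q cells, against 200 (20.5%) and 111 (8.91%) Ccr2 0 C1q cells. These shares were not taken at equal depth, and the median totals were 3710 and 3381 against 2381.5 and 2364 UMIs. Scrublet, which scores barcodes as possible 2-cell droplets, called 1 and 0 of the Ccr2-positive C1q cells. The libraries shared 65 barcodes, 3 of them among Ccr2-positive C1q cells of mouse 1 and 0 in mouse 2. The part of these other cell types in the results was not tested except where a value without the cells concerned is given.

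The first comparison asked how C1q macrophages with Ccr2 differed from those without. UMIs were summed per mouse and cell set and tested with edgeR's quasi-likelihood test with mouse as a block. A gene was called at a Benjamini-Hochberg adjusted p under 0.05 over all genes tested and a log2 fold change of at least 0.5 either way. Of 9184 genes tested, 200 were called higher in Ccr2-positive C1q cells (2.18%) and 188 lower (2.05%), together 4.22% of the genes. Without the Ccr2-positive C1q cells of mouse 1 in the fit 65 genes were higher and 61 lower, and without those of mouse 2, 119 and 132. The main pattern was a rise of S100, annexin and monocyte genes, a smaller rise of antigen-presentation genes, and a fall of resident-macrophage genes in both mice. Folds are given as log2 with the standard error, for 2 mice.

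**Figure D1:**
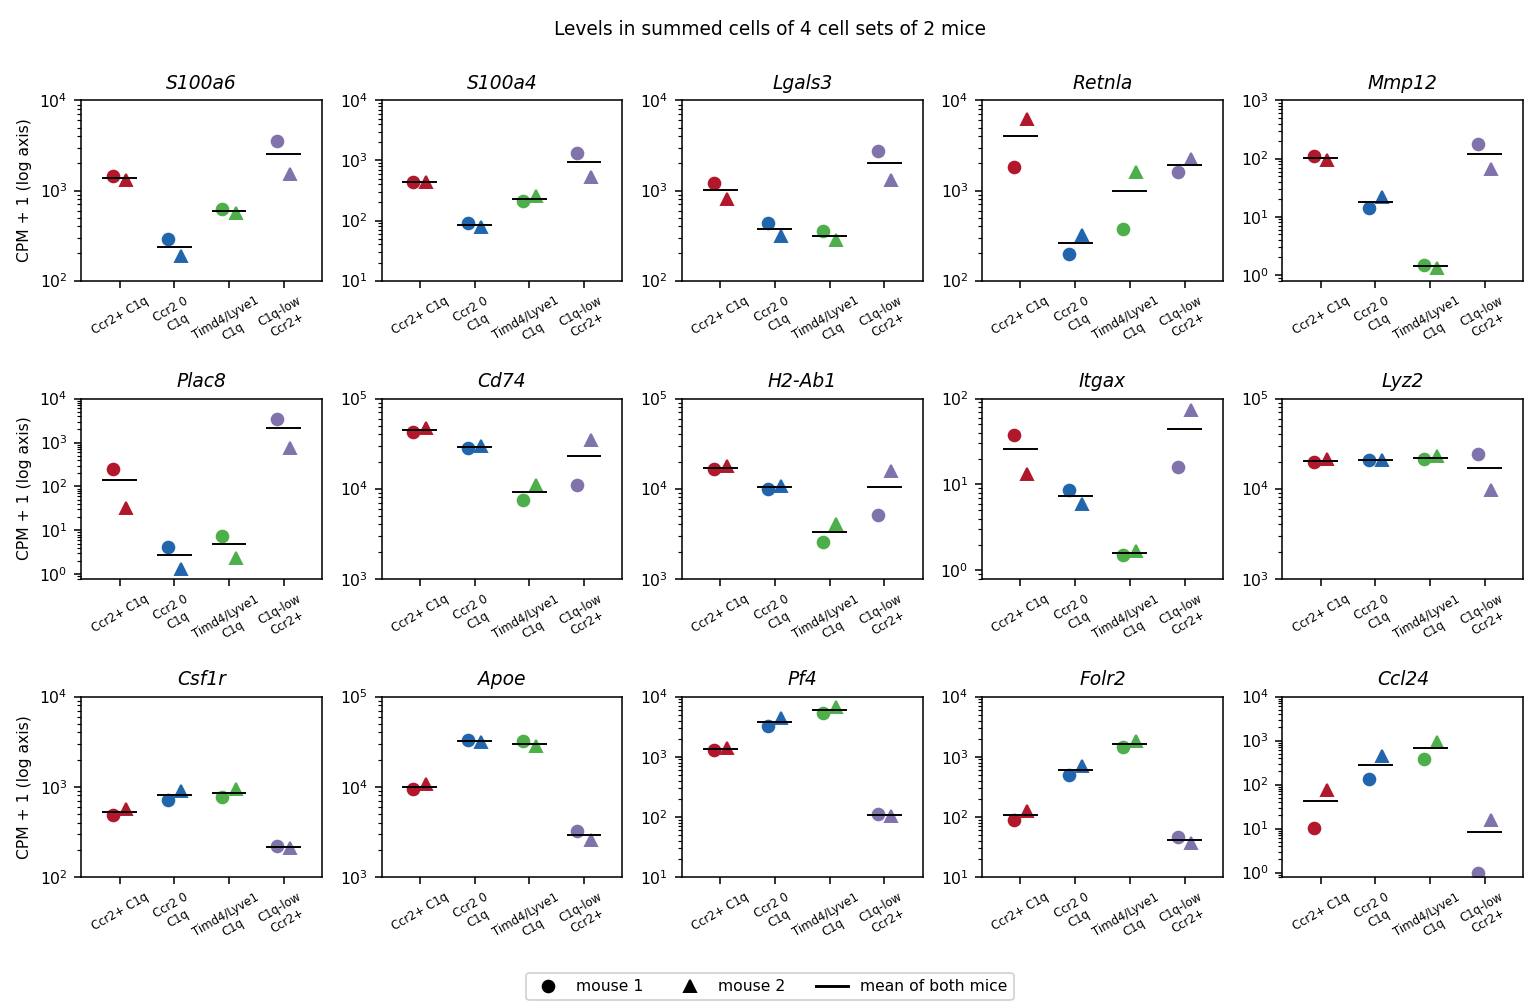
Levels of 15 genes in summed cells of the 4 cell sets, in CPM plus 1 on a log axis; circles are mouse 1, triangles mouse 2 and the bar is their mean. In Ccr2-positive C1q cells S100a6 stood at 1452 and 1321 CPM, above both C1q sets without Ccr2, whereas Apoe, Pf4 and Folr2 stood below both.

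Small calcium-binding and membrane-scaffold proteins gave the clearest rise. S100a6, which encodes a calcium-binding protein abundant in motile cells, was at 1452 and 1321 CPM in Ccr2-positive C1q cells, against 288 and 185 CPM in Ccr2 0 C1q cells. Both mice were higher in the Ccr2-positive cells and the ranges did not overlap, with a log2 fold change of 2.66 ± 0.19 (adjusted p = 2.9e-08). Its neighbour on chromosome 3, S100a4, which is widely used as a marker of migrating leukocytes, was at 435 and 445 CPM against 89.7 and 75.9 CPM (log2 2.48 ± 0.23, adjusted p = 9.6e-07). Lgals3 encodes galectin-3, a sugar-binding protein of inflammatory macrophages. It was at 1197 and 806 CPM against 433 and 310.3 CPM (log2 1.49 ± 0.14, adjusted p = 1.1e-06). The thymosin gene Tmsb10, whose product binds actin monomers, rose by 2.01 ± 0.17 and Vim, the intermediate filament vimentin, by 1.01 ± 0.11. In the whole list of S100 proteins, annexins and related cytoskeletal genes, 14 of 22 tested rose and 0 fell. Over all genes 2.18% were called higher and 2.05% lower. The median log2 fold change of the list was 0.76 against -0.00 over all genes. Of the neutrophil genes in the same list, S100a8 was at 61.1 and 4.84 CPM against 127 and 10.1 CPM and S100a9 at 37 and 4.84 CPM against 88.1 and 2.28 CPM, and neither was called. Without the Ccr2-positive cells of mouse 1, 13 of 22 were called higher, and without those of mouse 2, 12 of 22.

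Genes typical of monocytes rose as well, and unevenly between the mice. Of 24 monocyte genes tested, 12 were higher and 0 lower, against 2.18% higher over all genes, with a median log2 fold change of 1.47. Plac8, a marker of classical monocytes, was at 248 and 31.5 CPM in Ccr2-positive C1q cells, against 3.23 and 0.326 CPM in Ccr2 0 C1q cells (log2 6.33 ± 0.32, adjusted p = 4.2e-10). Mouse 1 was the higher of the Ccr2-positive pair, and both exceeded all Ccr2 0 values (log2 5.74 without the Ccr2-positive cells of mouse 1). Chil3, a chitinase-like protein of monocytes, had 43 UMIs in Ccr2-positive C1q cells of mouse 1 and 1 in those of mouse 2, against 2 and 0 in Ccr2 0 C1q cells. Its pooled ratio of 128 (exact 95% interval 33.4 to 1090.0, counting error only) thus came from mouse 1, and it was not called without the Ccr2-positive cells of that mouse (adjusted p = 0.18). Fn1, fibronectin, which monocytes carry into tissue, was at 75.9 and 48.4 against 8.49 and 1.3 CPM (log2 3.74 ± 0.37, adjusted p = 1.9e-06), with log2 4.51 without the Ccr2-positive cells of mouse 1. Hp, haptoglobin, was seen in 1 mouse, at 59.3 and 0 against 5.25 and 0.651 CPM, and its call (log2 3.33 ± 0.47) rested on that library (log2 -1.55, adjusted p = 0.95, without the Ccr2-positive cells of mouse 1). Without those cells 6 of 25 monocyte genes tested were higher (among them Plac8, Fn1 and Lgals3), and without the Ccr2-positive cells of mouse 2, 10 of 26.

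These monocyte transcripts came from few cells. Of the Ccr2-positive C1q cells, 116 in mouse 1 (87.2%) and 105 in mouse 2 (92.9%) had no UMI of Ly6c2, Plac8 or Chil3, and 9 and 2 cells had 3 or more. The 5 highest cells held 72.4% and 92.3% of Plac8 UMIs and 97.5% and 100% of Ly6c2 UMIs, 53.7% and 85.0% of Fn1 UMIs, and 17.5% and 26.0% of S100a6 UMIs. When every cell with a UMI of these 3 genes was left out of all sets, 7 of 16 monocyte genes that could still be tested were higher (among them Fn1, S100a4, S100a6, Lgals3 and Ms4a4c). In the S100 and annexin list 14 of 22 were again higher, all of them among the 14 called before, and 20 of 21 resident genes were lower. In Ccr2-positive C1q cells with none of those UMIs, S100a6 stood at 1269 and 1263 CPM and Apoe at 9901 and 11037 CPM.

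Several of the largest rises were genes outside those lists. Ear2, which encodes a ribonuclease of the eosinophil-associated family, was at 74.1 and 94.4 CPM in Ccr2-positive C1q cells, against 2.42 and 0.326 CPM in Ccr2 0 C1q cells (log2 6.08 ± 0.46, adjusted p = 6.3e-08). The 5 highest cells held 67.5% and 59.0% of the Ear2 UMIs, and the level without them was 25.6 and 41.6 CPM. Near-identical family members can share 3′ reads, so the assignment to Ear2 is uncertain, and the same holds for Sirpb1c, a signal-regulatory protein gene, at 85.2 and 50.8 against 3.64 and 0.977 CPM (52.6 and 23.4 CPM without its 5 highest cells). Retnla, the secreted resistin-like protein RELMα of alternatively activated macrophages, was at 1839 and 6294 CPM against 198 and 319 CPM (log2 3.84 ± 0.27, adjusted p = 2.9e-08). Retnla was concentrated in a minority, with a UMI in 25 of 133 (18.8%) and 45 of 113 (39.8%) Ccr2-positive C1q cells, against 48 of 974 (4.93%) and 158 of 1246 (12.7%). At 1500 UMIs per cell these shares were 17.4% and 35.8% against 3.73% and 8.30%. Fibroblast-type cells, at their full depth, had a Retnla UMI in 3.27% and 6.79%. The 5 highest cells held 59.9% and 61.0% of its UMIs, and the level without them was 781 and 2605 CPM.

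Mmp12, the macrophage elastase, was at 111 and 94.4 CPM in Ccr2-positive C1q cells, against 13.3 and 20.8 CPM in Ccr2 0 C1q cells (log2 2.63 ± 0.29, adjusted p = 5.8e-06). Its 5 highest cells held 48.3% and 61.5% of the UMIs, so the level rested on few cells here too. Tnip3, an inhibitor of NF-κB signalling, was at 113 and 82.3 against 8.89 and 5.86 CPM. Olfm1, a secreted glycoprotein gene known best from brain, was at 66.7 and 65.3 against 6.47 and 2.93 CPM, and Emb, the adhesion protein embigin, at 226 and 162 against 32.3 and 21.2 CPM. All 3 were higher in both mice with no overlap, by 3.80 ± 0.27, 3.92 ± 0.42 and 2.89 ± 0.23. Lyz1, lysozyme 1, rose by 2.26 ± 0.29 at 396 and 675 against 152 and 83.4 CPM, with log2 2.86 without the Ccr2-positive cells of mouse 1 and 1.55 without those of mouse 2. The 5 highest cells held 51.4% and 45.9% of its UMIs. Its paralogue Lyz2, the main macrophage lysozyme, was at 19519.6 and 21163 against 20978 and 20895 CPM with a fold of 0.03 ± 0.21 (adjusted p = 0.97). The 2 sequences are close enough that reads could be divided between them.

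**Figure D2:**
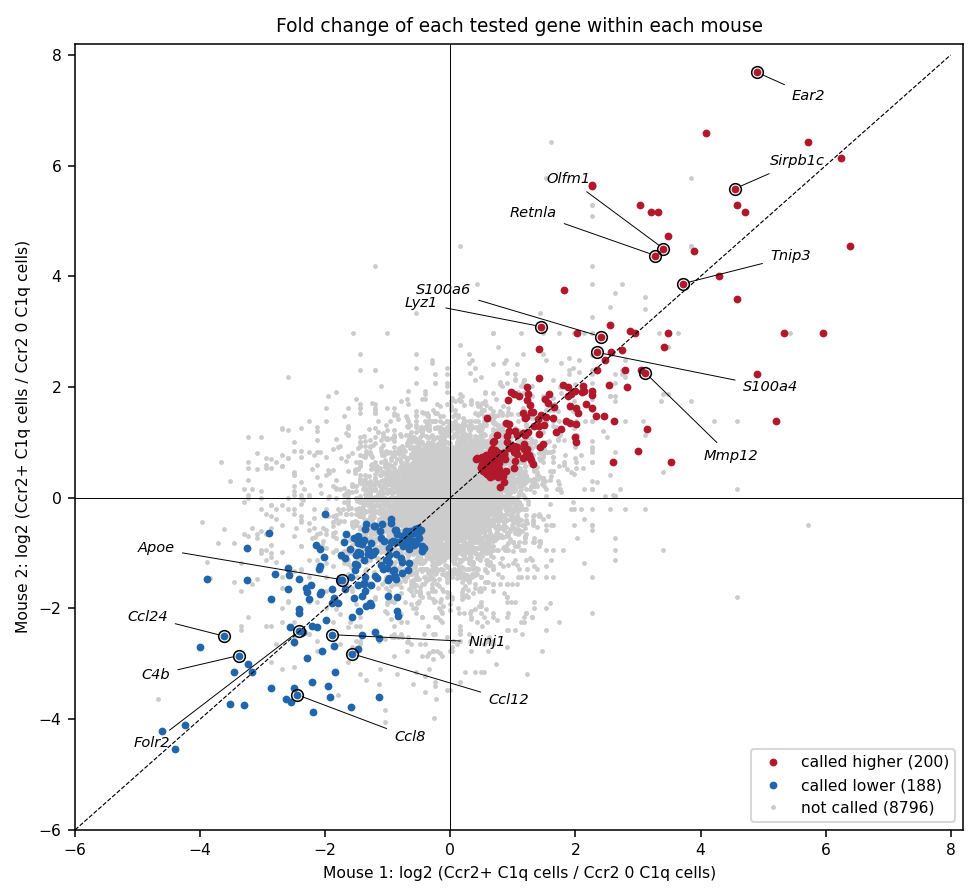
Log2 fold change of each of the 9184 tested genes, Ccr2-positive C1q cells over Ccr2 0 C1q cells, in mouse 1 (x axis) and mouse 2 (y axis), with 200 genes called higher in red, 188 called lower in blue and the others in grey. The dashed line marks equal folds, and labelled genes are among those described in the text.

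MHC class II genes, which load and display peptides to CD4 T cells, were higher by a smaller amount. Of 13 tested, 6 were called higher and 0 lower, against 2.18% and 2.05% over all genes, with a median log2 fold change of 0.70. H2-Ab1, the beta chain of I-A, was at 16315 and 17680.4 CPM in Ccr2-positive C1q cells, against 9815 and 10820.5 CPM in Ccr2 0 C1q cells (log2 0.79 ± 0.21, adjusted p = 0.037). H2-DMb1, part of the peptide-exchange factor DM, was at 1243 and 1270.5 against 657 and 698 CPM (log2 0.97 ± 0.21, adjusted p = 0.0084). Ciita, the transactivator on which the whole family depends, was at 63 and 84.7 against 16.6 and 42.3 CPM, and all values of the Ccr2-positive cells lay above those of the Ccr2 0 cells (log2 1.45 ± 0.26). Cd74, the invariant chain, was the most abundant of the list, at 42509 and 46809.8 against 28034 and 29907 CPM. It was higher in both mice without overlap, by 0.69 ± 0.22, but its adjusted p was 0.081 and it was not called. H2-Aa (0.70, adjusted p = 0.086) and H2-Eb1 (0.75, adjusted p = 0.058) likewise missed the threshold. Within mouse 1 and mouse 2 the log2 folds were alike, at 0.80 and 0.78 for H2-Ab1 and 0.67 and 0.72 for Cd74. They were 0.64 and 0.79 for H2-Aa and 0.72 and 0.80 for H2-Eb1. The calls still depended on the fit and were lost without the Ccr2-positive cells of mouse 1. That fit takes the difference between mice from the other sets. It gave a log2 fold change of 0.41 for H2-Ab1, 1.04 for Ciita and 0.66 for H2-DMb1. DESeq2 called 1 of 13, Ciita. At 1500 UMIs per cell, 8 of 12 were called, Cd74, H2-Aa and H2-Eb1 among them.

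Resident-macrophage genes fell almost as a block. Of 22 tested, 20 were lower and 0 higher, against 2.05% lower and 2.18% higher over all genes, with a median log2 fold change of -1.58. Timd4 and Lyve1 themselves defined the sets and are not in this count. The gate did not make them equal. Lyve1 stood at 33.3 and 33.9 CPM in Ccr2-positive C1q cells, against 122 and 94.1 CPM in Ccr2 0 C1q cells. Timd4 stood at 1.85 and 7.26 against 14.1 and 26.4 CPM. The part of resident cells that passed the gate in the fall was not tested. Folr2, the folate receptor of resident macrophages, was at 88.9 and 126 CPM in Ccr2-positive C1q cells, against 502 and 708 CPM in Ccr2 0 C1q cells (log2 -2.42 ± 0.15, adjusted p = 1.1e-08). A Folr2 UMI occurred in 15.8% and 23.0% of Ccr2-positive C1q cells, against 49.6% and 54.9%, and at equal depth in 9.85% and 15.6% against 38.6% and 46.6%. Fibroblast-type cells, at median depths of 2797 and 2515 UMIs, had one in 5.73% and 5.39%. Cd163, the scavenger receptor for haemoglobin bound to haptoglobin, was at 113 and 104 against 348 and 390.1 CPM (log2 -1.68 ± 0.15, adjusted p = 6.9e-07). Gas6, the bridging ligand that lets macrophages take up apoptotic cells through MERTK and AXL, was at 66.7 and 104 against 299 and 369.6 CPM (log2 -1.92 ± 0.17). Igf1, a growth factor for cardiomyocytes, was at 55.6 and 111 against 128 and 274 CPM (log2 -1.19 ± 0.18). For each of these genes both mice were lower in the Ccr2-positive cells. Vsig4, the complement receptor CRIg, had 0 UMIs in Ccr2-positive C1q cells and 130 in Ccr2 0 C1q cells, at least 7.45-fold lower when 3 UMIs over the group are taken as the floor. Without the Ccr2-positive cells of mouse 1, 14 of 23 resident genes were called lower, and calls lost included Mrc1, the mannose receptor (log2 -0.73, adjusted p = 0.086), and Fcgrt, the neonatal Fc receptor (-0.57, adjusted p = 0.23).

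Genes common to most macrophages fell less. Of 17 core macrophage genes, 7 were lower and 0 higher, against 2.05% lower and 2.18% higher over all genes, with a median of -0.38. The largest was Apoe, apolipoprotein E, a lipid carrier that macrophages secrete in quantity. It was at 9354 and 10667 CPM in Ccr2-positive C1q cells, against 32647 and 31339 CPM in Ccr2 0 C1q cells (log2 -1.60 ± 0.11, adjusted p = 1.9e-08). Abca1, which loads cholesterol onto apolipoproteins, was also lower, at 70.4 and 55.7 against 147 and 163 CPM (log2 -1.20 ± 0.19). Csf1r was lower at 483 and 561 against 717 and 887 CPM (log2 -0.55 ± 0.12, adjusted p = 0.0079). Adgre1, which encodes F4/80, had a fold of -0.30 ± 0.13 and was not called (adjusted p = 0.24), nor was the signalling adaptor Tyrobp at -0.06 ± 0.18. Without the Ccr2-positive cells of mouse 1, 3 of 17 were called, and Csf1r (-0.57, adjusted p = 0.13) was not among them. Csf1r also missed the threshold without those of mouse 2 (-0.61, adjusted p = 0.060).

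Of 19 chemokines tested, 5 were lower and 0 higher, against 2.05% lower and 2.18% higher over all genes. Pf4, platelet factor 4 or CXCL4, was at 1286 and 1391 CPM in Ccr2-positive C1q cells, against 3248 and 4398 CPM in Ccr2 0 C1q cells (log2 -1.43 ± 0.11, adjusted p = 1.3e-07). Ccl24, an eotaxin, was at 9.26 and 72.6 against 131 and 439.6 CPM (log2 -2.77 ± 0.26) and Ccl8 at 57.4 and 9.68 against 335 and 135 CPM (log2 -2.85 ± 0.31). Among the CCR2 ligands, Ccl12 was at 357 and 70.2 against 1113 and 530.5 CPM (log2 -1.94 ± 0.20, adjusted p = 3.9e-06) and Ccl7 at 193 and 38.7 against 363 and 184 CPM (log2 -1.15 ± 0.22). These sizes depended on the mouse: without the Ccr2-positive cells of mouse 1 the log2 fold change was -2.86 for Ccl12, -2.28 for Ccl7 and -3.46 for Ccl8, and without those of mouse 2 it was -1.64, -0.84 and, for Ccl24, -3.96, each still called. Mouse 2 was far below mouse 1 for both ligands in each set, so the fold within each mouse carries the comparison. Ccl2 stood at 241 and 138 against 313 and 258 CPM and was not called (-0.50 ± 0.20, adjusted p = 0.2). Among 13 chemokine and chemoattractant receptors, Ltb4r1, the leukotriene B4 receptor, was higher at 44.5 and 26.6 against 1.62 and 0.651 CPM (log2 4.99 ± 0.54). C5ar1, the receptor for the complement fragment C5a, and the sphingosine receptor S1pr1 were lower, but C5ar1 was not called without the Ccr2-positive cells of mouse 2 (log2 -0.50, adjusted p = 0.18), nor S1pr1 without those of mouse 1 (-1.03, adjusted p = 0.45). The fractalkine receptor Cx3cr1 was at 126 and 223 against 72.7 and 185 CPM and was not called (0.56 ± 0.19, adjusted p = 0.11).

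Of 17 C-type lectins, 3 were higher and 3 lower, against 2.18% higher and 2.05% lower over all genes. Clec4b1, a lectin of dendritic cells and monocytes, was at 276 and 283 CPM in Ccr2-positive C1q cells, against 82.9 and 72.9 CPM in Ccr2 0 C1q cells (log2 1.93 ± 0.17), and Clec12a, an inhibitory lectin of myeloid cells, at 132 and 273 against 60.2 and 106 CPM (log2 1.34 ± 0.17). The third to rise, Clec4a2, was not called without the Ccr2-positive cells of either mouse (adjusted p = 0.53 without mouse 1 and 0.090 without mouse 2). Mrc1, Clec4n and Clec4d were the lectins that fell, of which Mrc1 and Clec4d were not called without the Ccr2-positive cells of mouse 1 (adjusted p = 0.086 and 0.19). Pilra, an inhibitory immunoglobulin-type receptor, rose at 144 and 116 against 48.5 and 45.3 CPM (log2 1.56 ± 0.21). Adhesion genes that rose were Cd44, the hyaluronan receptor, at 252 and 184 against 109.5 and 118 CPM, and Selplg, the selectin ligand PSGL-1, at 220.4 and 293 against 141 and 169 CPM. Itgb7, an integrin beta chain, rose too, but neither it (log2 2.26, adjusted p = 0.38) nor Cd44 (0.88, adjusted p = 0.071) was called without the Ccr2-positive cells of mouse 1. Itgax was called in this comparison at 37 and 12.1 against 7.68 and 4.88 CPM (log2 2.11 ± 0.56, adjusted p = 0.034). Within mouse 1 and mouse 2 the log2 fold was 2.33 and 1.47, from 20 and 5 Itgax UMIs in Ccr2-positive cells. It was 0.95 with the Ccr2-positive cells of mouse 1 left out of the fit. The Itgax call was not made at equal depth (2.07, adjusted p = 0.14).

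Of 19 inflammatory cytokine and regulator genes tested 0 were called by edgeR or by DESeq2 (1 higher and 5 lower at an unadjusted edgeR p under 0.05), with Il1b at 87.1 and 65.3 CPM in Ccr2-positive C1q cells and 109 and 171 CPM in Ccr2 0 C1q cells (-0.77 ± 0.28, adjusted p = 0.14). Of 22 cell-cycle genes 0 were called by edgeR or by DESeq2 (2 higher and 0 lower at an unadjusted edgeR p under 0.05), and of 26 interferon-stimulated genes 1, Ms4a4c, was higher. Over all genes 2.18% were called higher and 2.05% lower, and the interferon count was close to that share. Of 16 glycolysis and hypoxia genes, 4 were higher: Pkm, pyruvate kinase (0.91 ± 0.13), Ldha, lactate dehydrogenase (0.80 ± 0.13), Gapdh (0.66 ± 0.11) and Eno1, enolase (0.93 ± 0.14). Of 16 iron and haem genes 5 were lower, among them Blvrb, biliverdin reductase (-1.25 ± 0.15), and the iron exporter Slc40a1, which had 0 and 5 UMIs in Ccr2-positive C1q cells (-3.12 ± 0.52). Of 17 dendritic-cell genes 4 were higher, Napsa, an aspartic protease (4.21 ± 0.30), Batf3 (0.95 ± 0.20), Tnip3 and Itgax, while Irf8, the factor that dendritic-cell precursors require, was at 167 and 227 against 207 and 248 CPM and was not called. Without the Ccr2-positive cells of mouse 1, Ldha (0.71, adjusted p = 0.058), Gapdh (0.62, adjusted p = 0.074) and Batf3 (0.74, adjusted p = 0.13) were no longer called. Fabp4, a fatty-acid carrier abundant in endothelium, was called lower at -1.22, and that call was lost when Scrublet calls were left out (-0.46, adjusted p = 0.16).

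**Figure D3:**
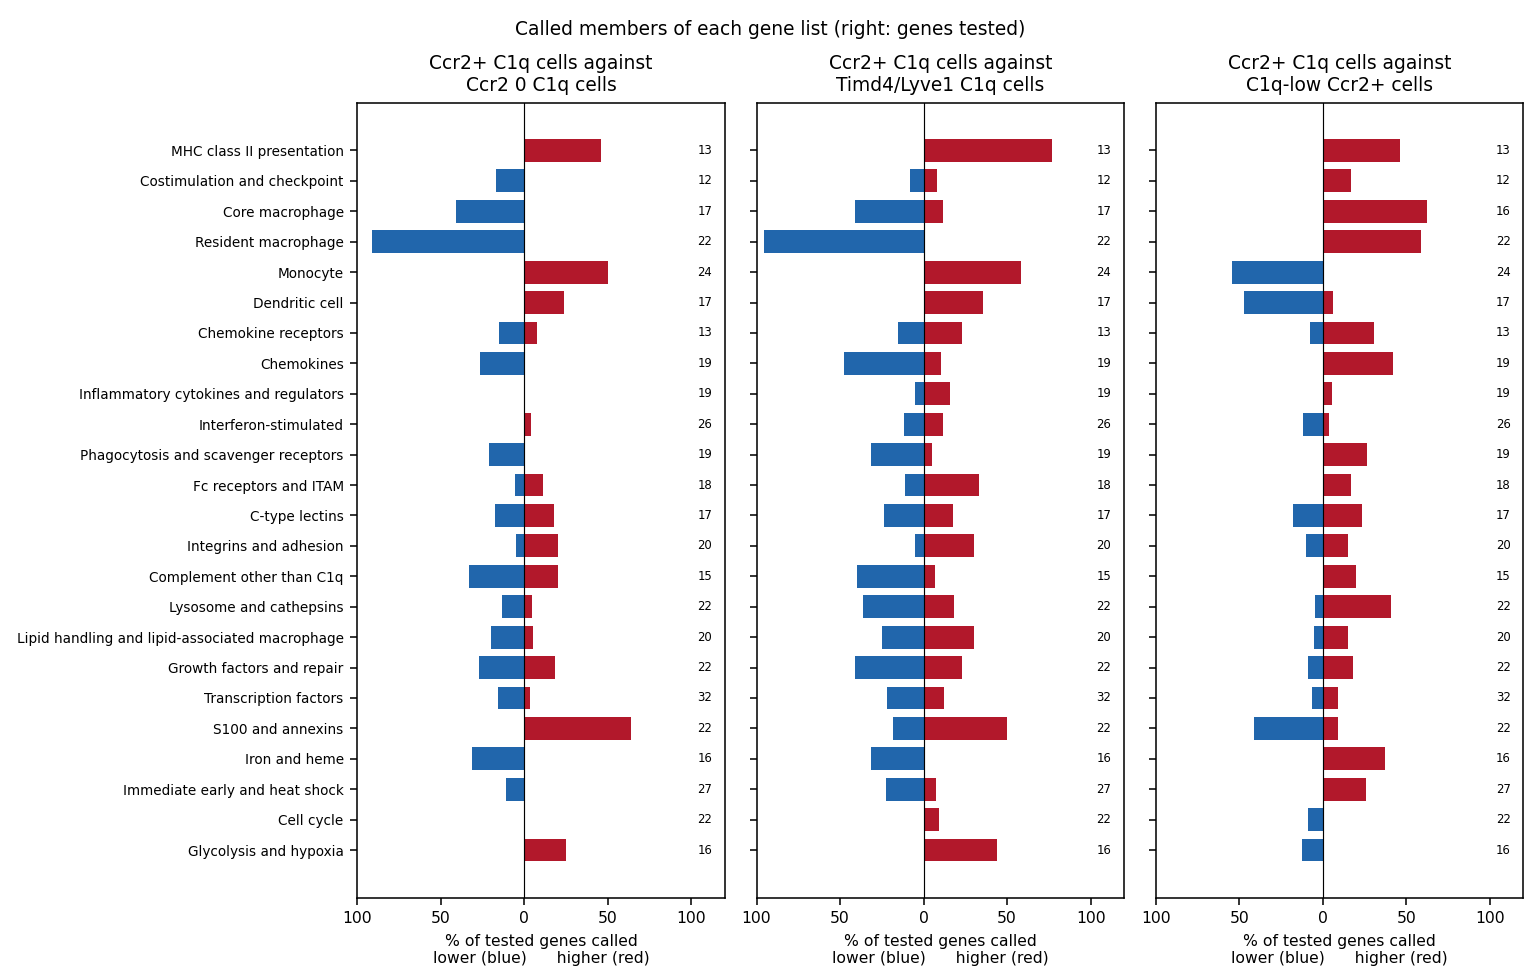
Percent of tested genes of each of 24 gene lists called higher (red, right) or lower (blue, left) in Ccr2-positive C1q cells against each of the 3 comparison sets, with the number of genes tested at the right of each panel. Resident-macrophage genes ran lower against both other C1q sets (20 of 22 and 21 of 22) and higher against C1q-low Ccr2-positive cells (13 of 22).

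The levels changed with the number of Ccr2 UMIs a C1q cell carried. In mouse 1, Apoe was at 32647, 16789, 12804, 10251 and 5597 CPM in C1q cells with 0, 1, 2, 3 to 4, and 5 or more Ccr2 UMIs. In mouse 2 the same steps gave 31339, 16829, 18232, 8503 and 4879 CPM. S100a6 ran the other way, at 288, 589, 881, 1291 and 2089 CPM in mouse 1 and 185, 686, 1043, 1407 and 1524 CPM in mouse 2. Cells with a single Ccr2 UMI, just outside the threshold, thus lay between the sets for both genes. Cd74 was already at 41626 and 43800 CPM in cells with 1 UMI, close to the 43109 and 47362 CPM of cells with 2, and above the 28034 and 29907 CPM of cells with 0. Depth rose along the same steps, with median totals of 2381.5, 3085, 3222, 3653.5 and 4945 UMIs in mouse 1 and 2364, 2759, 2739, 3529 and 3648 in mouse 2, and its part in the steps was not tested beyond the equal-depth fit. These values describe cells ranked by a gene of the rule and carry no test.

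**Figure D4:**
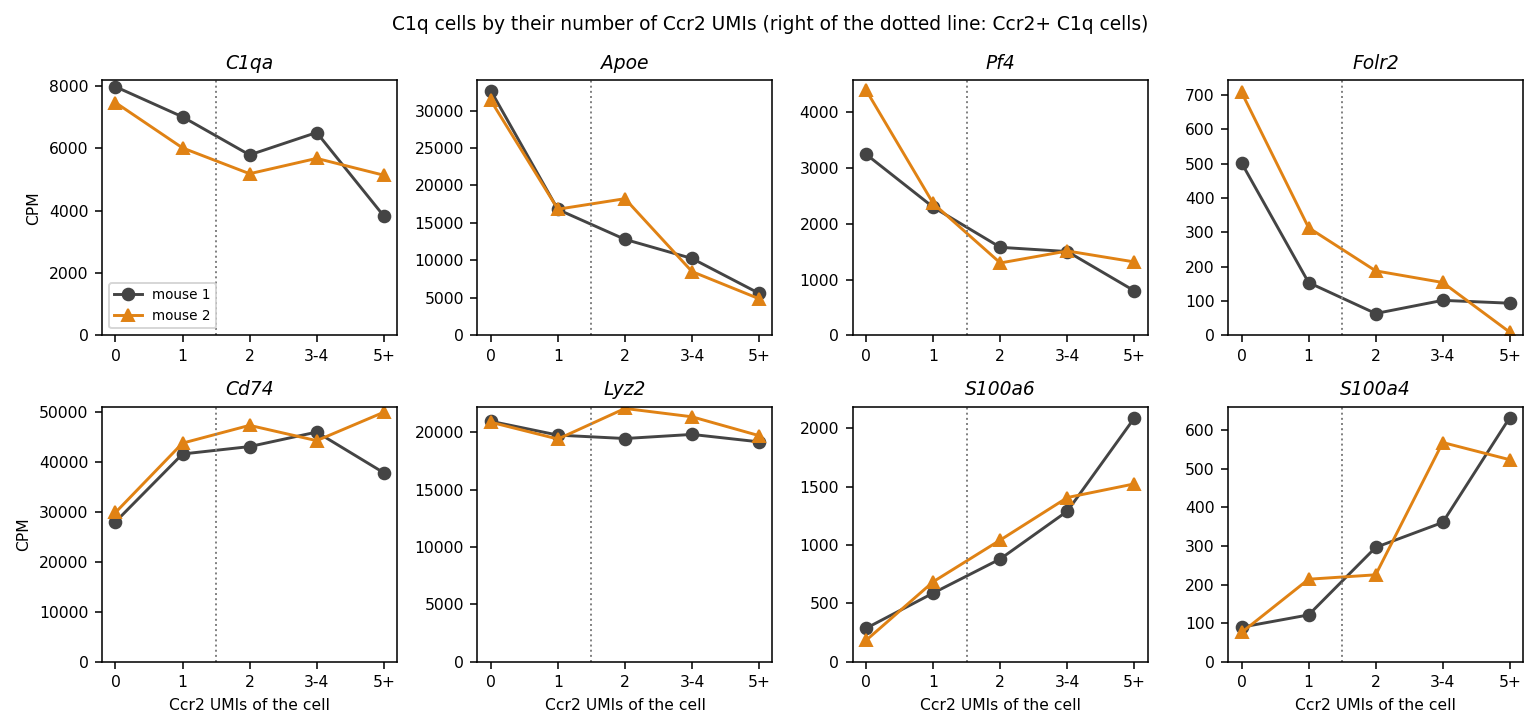
CPM of 8 genes in C1q cells with at most 1 Timd4 plus Lyve1 UMI, binned by their Ccr2 UMIs (0, 1, 2, 3 to 4, 5 or more) in mouse 1 (grey circles) and mouse 2 (orange triangles); cells right of the dotted line are the Ccr2-positive C1q cells. S100a6 climbed at every step in both mice, and Apoe and Pf4 ended lower than they began, with an upward step in mouse 2 for Apoe (1 to 2 UMIs) and for Pf4 (2 to 3 or 4 UMIs).

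At the other threshold, Ccr2-positive cells with 15 to 24 C1q UMIs, just inside, were 12 and 13 cells with Apoe at 3260 and 10613 CPM and S100a6 at 3036 and 1881 CPM. Those with 5 to 14, just outside, were 13 and 19 cells with Apoe at 5175 and 1691 CPM and S100a6 at 2213 and 2101 CPM. Plac8 in the same cells was at 863 and 269 CPM inside and 1497 and 12.4 CPM outside. The 2 sides of that line therefore overlapped for these genes. A further 26 and 9 C1q cells had at least 2 Ccr2 UMIs together with at least 2 of Timd4 plus Lyve1 and were not counted as Ccr2-positive C1q cells.

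The spread over single cells differed from gene to gene. H2-Aa was detected in all Ccr2-positive C1q cells, with 0 cells lacking it in either mouse. Of Ccr2 0 C1q cells, 160 of 974 and 126 of 1246 had none. These counts were at full depth, with median totals of 3710 and 3381 against 2381.5 and 2364 UMIs. Fibroblast-type cells had an H2-Aa UMI in 21.2% and 27.6%. Per 10000 UMIs of a cell, Cd74 had a median of 448 and 472 in Ccr2-positive C1q cells, against 264 and 302 in Ccr2 0 C1q cells. The upper quartiles lay closer, at 554 and 588 against 441 and 472, and the lower quartiles further apart, at 337 and 378 against 66.3 and 96.9. Apoe had a median of 65.3 and 55.2, against 313 and 303, with a 10th percentile of 6.48 and 5.78 against 86.6 and 86.9. S100a6 had a median of 9.18 and 7.44 against 0 and 0, yet 31 and 33 Ccr2-positive C1q cells held no S100a6 UMI. A sum over cells cannot tell a shift of every cell from a change in how many cells carry a gene, and the per-cell spread shows both kinds among these genes.

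**Figure D5:**
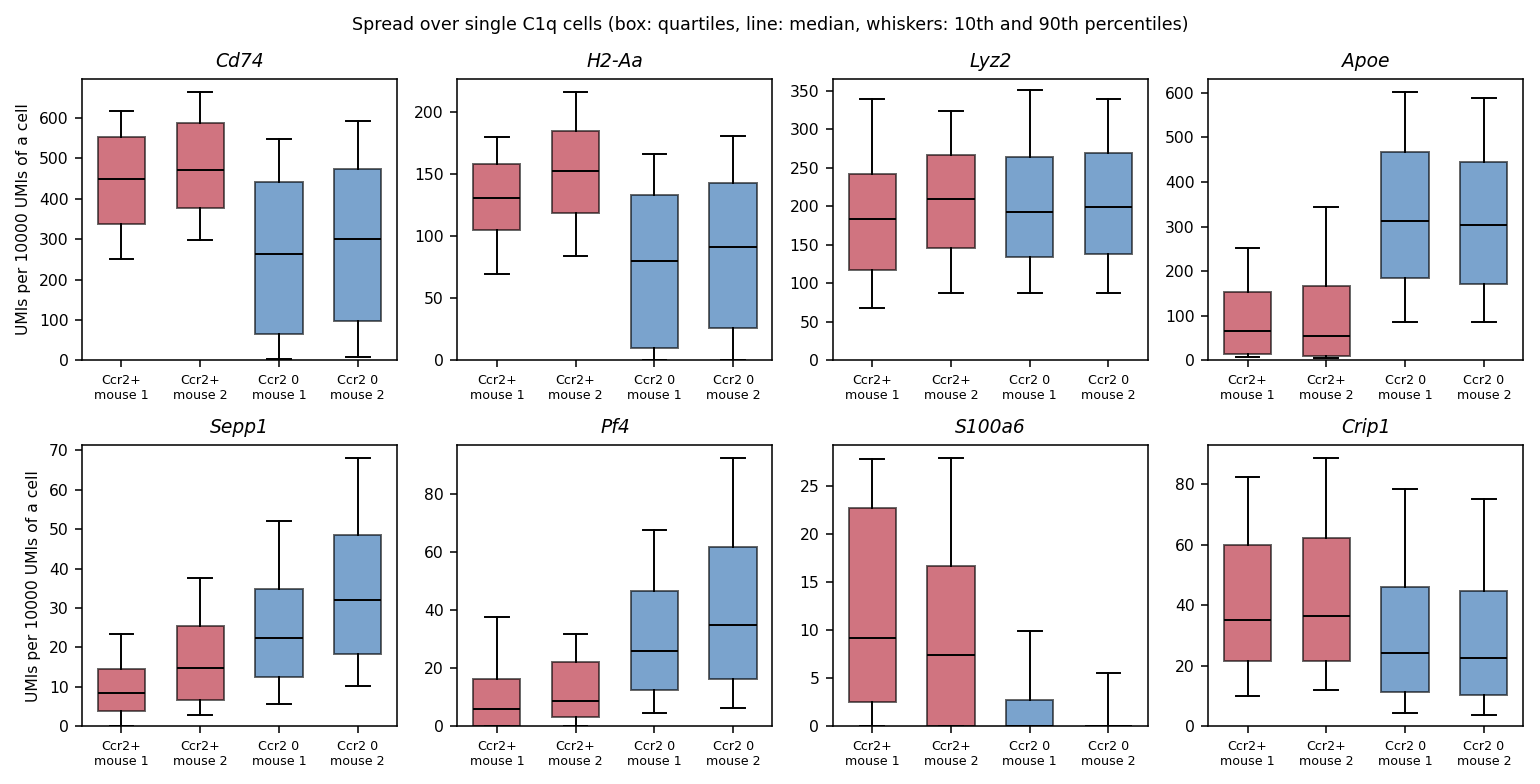
UMIs per 10000 UMIs of a cell for 8 genes in single Ccr2-positive C1q cells (red) and Ccr2 0 C1q cells (blue) of each mouse; boxes give quartiles, the line the median and whiskers the 10th and 90th percentiles over cells. The Cd74 and H2-Aa boxes of the Ccr2-positive cells are short and sit at the upper end of the Ccr2 0 range, and the Apoe boxes lie below those of the Ccr2 0 cells.

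Set against Timd4/Lyve1 C1q cells, which the rule chose by resident genes, Ccr2-positive C1q cells had higher MHC class II genes and lower resident genes. This comparison shares the Ccr2-positive cells with the first, so the values stand side by side and are not independent. Of 9184 genes, 457 were higher (4.98%) and 404 lower (4.40%), together 9.38%. Without the Ccr2-positive C1q cells of mouse 1, 196 were higher and 186 lower, and without those of mouse 2, 265 and 288. Cd74 was at 42509 and 46809.8 CPM in Ccr2-positive C1q cells, against 7447 and 11096 CPM in Timd4/Lyve1 C1q cells (log2 2.41 ± 0.23, adjusted p = 3.7e-07), and 10 of 13 MHC class II genes were higher with 0 lower. Cx3cr1 was at 126 and 223 against 18.3 and 68.7 CPM (log2 2.24 ± 0.21, adjusted p = 4.1e-07). Fcgr4, an activating Fc receptor, was at 206 and 136 against 68.3 and 24.6 CPM (log2 1.95 ± 0.19), and Axl, a receptor for Gas6, at 139 and 162 against 37.7 and 54.1 CPM (log2 1.84 ± 0.20). Il1b, the inflammatory cytokine interleukin-1β, was at 87.1 and 65.3 against 22.8 and 19.6 CPM (log2 1.92 ± 0.35, adjusted p = 0.001). For all of these the Ccr2-positive values of both mice exceeded both Timd4/Lyve1 values, although Il1b was not called without the Ccr2-positive cells of mouse 1 (1.49, adjusted p = 0.064).

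Resident genes were lower in 21 of 22 cases, with 0 higher and a median log2 fold change of -2.23. Over all genes 4.40% were lower and 4.98% higher. The rule chose Timd4/Lyve1 C1q cells by resident genes, so the lower direction was favoured in advance and the count is a description. Folr2 was at 88.9 and 126 CPM in Ccr2-positive C1q cells, against 1445 and 1811 CPM in Timd4/Lyve1 C1q cells (log2 -3.84 ± 0.15). Vsig4 had 0 UMIs against 1287, at least 45.3-fold lower at the 3-UMI floor. Klf2, a transcription factor that restrains inflammatory genes, was at 428 and 569 against 1044 and 1601 CPM (log2 -1.29 ± 0.12, adjusted p = 4.1e-07). Chemokines were lower in 9 of 19 cases and higher in 2, Cxcl16 and Ccl4. Cxcl16 was not called without the Ccr2-positive cells of either mouse (adjusted p = 0.11 without mouse 1 and 0.057 without mouse 2). Ccl2 was among the lower ones, at 241 and 138 against 456 and 544 CPM (log2 -1.29 ± 0.20). The call of Ccl4 came from unlike mice, at 428 and 21.8 against 118 and 62.1 CPM, with mouse 1 above and mouse 2 below its own comparison cells, and without the Ccr2-positive cells of mouse 1 it was lower, at log2 -1.49 (adjusted p = 0.046). Crip1, a small LIM-domain protein of many leukocytes, stood at 4559 and 5055 against 5883 and 5812 CPM (-0.19 ± 0.10) and was not called, while S100a6 was higher by 1.31 ± 0.18.

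The third comparison asked how Ccr2-positive cells with much C1q differed from those with little. The C1q-low cells were not of a single kind. Plac8 had a UMI in 50 of 59 of them in mouse 1 (84.7%) and 8 of 30 in mouse 2 (26.7%), dendritic-cell markers summed to 151 and 998 CPM and monocyte markers to 8769 and 1794 CPM, so this set mixed cells in different proportions in each mouse. Of 9183 genes, 195 were higher in Ccr2-positive C1q cells (2.12%) and 98 lower (1.07%), together 3.19%. The median log2 fold change of all genes was 0.12, and folds here are read relative to it. Without the Ccr2-positive C1q cells of mouse 1, 58 genes were lower.

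Core macrophage genes were higher in 10 of 16 cases and lower in 0, against 2.12% higher and 1.07% lower over all genes. The rule split these sets by C1q, which macrophages make. Higher macrophage genes and lower monocyte and dendritic-cell genes were therefore favoured in advance, and the counts of these lists are a description. Adgre1 was at 257 and 336 CPM in Ccr2-positive C1q cells, against 60.5 and 50.2 CPM in C1q-low Ccr2-positive cells (log2 2.56 ± 0.27, adjusted p = 6.1e-06). Csf1r was at 483 and 561 against 217 and 208 CPM (log2 1.46 ± 0.17) and Apoe was higher by 1.98 ± 0.11. Resident genes, lower in the first 2 comparisons, were higher in 13 of 22 cases and lower in 0. Pf4 was at 1286 and 1391 against 111 and 100.5 CPM (log2 3.82 ± 0.18, adjusted p = 8.3e-11), and Cbr2, carbonyl reductase 2, had 165 UMIs against 2, a pooled ratio of 29.2 (exact 95% interval 7.96 to 243). For these genes the levels of Ccr2-positive C1q cells thus lay between C1q-low cells and the other C1q cells. Adgre1, however, was called against neither of the other C1q sets. Cd74 was at 42509 and 46809.8 against 11095 and 34453 CPM (log2 1.30 ± 0.22, adjusted p = 0.0013), with the C1q-low cells of mouse 1 far below those of mouse 2.

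Monocyte genes were lower in 13 of 24 cases and higher in 0, against 1.07% lower and 2.12% higher over all genes. This direction too was favoured by the split on C1q. Plac8 was at 248 and 31.5 CPM in Ccr2-positive C1q cells, against 3512 and 739 CPM in C1q-low Ccr2-positive cells (log2 -3.78 ± 0.16, adjusted p = 2.8e-11), and Ly6c2, a surface antigen of classical monocytes, was lower by -4.12 ± 0.24 (log2 -5.65 without the Ccr2-positive C1q cells of mouse 1). S100a4 was at 435 and 445 against 1337 and 524 CPM (log2 -0.94 ± 0.24, adjusted p = 0.034), so it too lay between the sets, and it was not called without the Ccr2-positive C1q cells of mouse 1 (-0.73, adjusted p = 0.21). Of the dendritic-cell genes 8 of 17 were lower and 1, Mgl2, was higher. Cd209a, a lectin of monocyte-related dendritic cells, was at 5.56 and 14.5 against 80.7 and 660.4 CPM (log2 -4.91 ± 0.48, and -4.29 without the Ccr2-positive C1q cells of mouse 2). Xcr1 and Clec9a, markers of cross-presenting dendritic cells, had 0 UMIs against 17 and 14, at least 16.0-fold and 13.2-fold lower at the 3-UMI floor, although neither was called without the Ccr2-positive C1q cells of mouse 2 (adjusted p = 0.072 and 0.27). Cd24a had 1 UMI against 45, a pooled ratio of 0.00787 (exact 95% interval 0.000195 to 0.0461). Retnla was at 1839 and 6294 against 1584 and 2232 CPM, with a fold of 1.03 ± 0.26 (adjusted p = 0.031) and ranges that overlapped, and it was at log2 -0.10 (adjusted p = 0.88) when cells with Ly6c2, Plac8 or Chil3 UMIs were left out.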

How the data were processed

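The authors deposited 1 table of raw UMI counts per gene and barcode for each of 2 libraries (21355383 and 15174548 UMIs over 27998 genes); per the submitters' processing notes they were made with Cell Ranger 2.2.0 and mm10, with FastQC. Totals per library set the precision of every value, and the cell sets of interest held 539867 and 413225 UMIs.

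Counts were summed per mouse and cell set, without removing doublets. Scrublet in scanpy 1.11.5 marked 388 and 242 barcodes and gave an alternative. The 4 sets of each mouse entered 1 fit in edgeR 4.0.16 under R 4.3.3, with TMM scaling, filterByExpr, the quasi-likelihood test and mouse as a block, leaving 3 residual degrees of freedom. Every set came from the same 2 animals, and deviations of same-mouse sets correlated at 0.18 to 0.67 across genes. Genes of the cell rule were left out of the calls, and Lyz2, Cd3d, Cd3e, Cd3g and Nkg7 also from those of the third comparison. DESeq2 1.42.0 was an alternative. CPM are UMIs per 1000000 summed UMIs, and standard errors were derived from the F statistic. Within-mouse folds add 0.5 counts. With the block, p-values describe how consistently the 4 sets differed across the 2 mice. They do not measure the spread between animals.

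Named genes were the largest called changes at 50 CPM or more on the higher side (12 each way, or 6 each way in the other comparisons) and up to 4 of each list by level. Other genes of the lists were named after their values were seen. The cells, the gene lists and the tests were chosen with earlier results of these data known. Choices of threshold, filter, depth and left-out cells were varied. Some genes are not reported here.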

Additional observations from a re-analysis of the deposited data

How the results depend on the processing

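Every cell set came from both mice, and the replicate block for mouse moved most counts of called genes. Without it, edgeR called 29 higher and 20 lower against Ccr2 0 C1q cells (200 and 188 with it), 134 and 98 against Timd4/Lyve1 C1q cells (457 and 404) and 63 and 15 against C1q-low Ccr2-positive cells (195 and 98). With only the pair of sets compared, the replicate block gave 301 and 300 in the first comparison and 69 and 36 in the third, and the pair without it gave 47 and 21, 132 and 92, and 7 and 0 (170 lower at an unadjusted p under 0.05). A fold floor of 1 on the log2 scale left 118 higher in the first and 261 in the second comparison. No filter on low counts gave 287 lower in the first, and DESeq2 gave 106 lower in the first and 231 in the second. At 1500 UMIs per cell there were 98 and 107 in the first and 276 and 242 in the second. Ccr2 of at least 1 UMI gave 121 and 114 in the first and 163 lower in the third, Ccr2 of at least 3 UMIs gave 115 and 55 in the third, C1q of at least 30 UMIs gave 101 higher in the first, and comparison cells with any Timd4 and Lyve1 count gave 395 and 380. Leaving out cells with Ly6c2, Plac8 or Chil3 UMIs, an alternative chosen after seeing the data, gave 58 lower in the third. Leaving the Ccr2-positive C1q cells of 1 mouse out of the fit, also chosen then, gave 65 to 119 higher and 61 to 132 lower in the first comparison, 196 to 265 and 186 to 288 in the second, and 163 to 167 and 58 to 87 in the third. The mean share among C1q cells, 4.46%, was 2.99% at 3 Ccr2 UMIs, 7.25% at 1, 1.96% at equal depth, 4.09% without the cells holding monocyte UMIs, and 4.28% to 4.64% in single mice. Of 2809 pairs of an alternative and a gene that the naming rule chose, 1 changed direction, Hmgb2, which was lower by log2 -0.58 (adjusted p = 0.043) in cells of 2000 to 6000 UMIs; 144 lost their call and 59 gained one. Over every called gene of the lists or that rule, 13 of 7549 pairs had the other sign. Among genes given a value above for the same comparison, these were Hp in the first, Ccl4 in the second and Retnla in the third. Ccl4 was also at log2 -0.38 (edgeR adjusted p = 0.44) without cells holding cardiomyocyte UMIs. Hp and S100a9 in the second comparison, and S100a9, Pkm and Ms4a4c in the third, had the other sign as well. The cause of these shifts was not tested. With a whole mouse left out no residual degrees of freedom remain, and only folds were computed.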

Other observations

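Against Ccr2 0 C1q cells, 4 of 22 growth factor and repair genes were higher in Ccr2-positive C1q cells (Fn1, Plaur, Mmp19 and Mmp12, against 2.18% of all genes) and 6 were lower, among them Timp2, an inhibitor of metalloproteinases (2.05% of all genes). Plaur (adjusted p = 0.46) and Mmp19 (0.84) were not called without the Ccr2-positive cells of mouse 1, nor Plaur without those of mouse 2 (0.16). Of 15 complement genes other than C1q, 3 were higher, including Cfp, which encodes properdin, and 5 were lower. The lysosome and cathepsin list had 1 higher (Psap, adjusted p = 0.097 without the Ccr2-positive cells of mouse 1) and 3 lower of 22, and the lipid-handling list 1 higher (Lgals3) and 4 lower of 20. Among 32 transcription factors 1 was higher (Batf3) and 5 were lower, and among 12 costimulation genes Cd83 and Cd86 (adjusted p = 0.35 without the Ccr2-positive cells of mouse 2) were lower and 0 higher. Phagocytosis and scavenger receptors gave 0 higher and 4 lower of 19, Fc receptors and their adaptors 2 higher and 1 lower of 18, integrins and adhesion genes 4 higher and 1 lower of 20, while the list of immediate early genes with heat shock genes had 0 higher and 3 lower of 27. Without the Ccr2-positive cells of mouse 1 the counts were smaller in several lists, with 2 higher and 3 lower of 25 growth factor and repair genes, 1 and 3 of 15 complement genes, 0 and 1 of 22 lysosome genes, 0 and 1 of 33 transcription factors, 1 and 1 of 20 adhesion genes, 1 and 0 of 18 Fc receptor genes and 0 and 1 of 28 immediate early and heat shock genes.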
